A study of Canis lupus familiaris with 69 samples.

Results

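The kynurenine pathway is the main route by which mammals break down the amino acid tryptophan. Its entry enzymes, IDO1, IDO2 and TDO2, open the indole ring of tryptophan, and the formamidase AFMID turns the product into kynurenine. Kynurenine then stands at a branch: KMO hydroxylates it, KYNU cleaves it and its hydroxylated form, and the aminotransferase AADAT converts it to kynurenic acid. HAAO acts further down the KMO arm, and QPRT and ACMSD compete at its end, the one towards NAD and the other away from it. IDO1 is known in other tissues and species as an interferon-inducible enzyme of inflamed epithelium, dendritic cells and macrophages, whereas TDO2 is best known from the liver and, in rodents, from the decidua.

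These 10 genes were found by symbol among 15947 genes measured on Affymetrix Canine Gene 1.0 ST arrays, and each of the 10 was represented by 1 probe set that carries no other gene symbol. For AFMID alone the annotated gene identifier had no symbol in the RefSeq gene list used, so its identity rests on the platform annotation. The arrays measured RNA from the endometrium of 69 female dogs, 1 array per dog, taken at ovariohysterectomy with the luminal exudate excluded. The groups were 17 dogs with pyometra (a uterus filled with pus), 15 with mucometra (sterile mucus), 16 with cystic endometrial hyperplasia (CEH, thickened endometrium with cystic glands) and 21 healthy dogs in diestrus, the luteal phase of the canine cycle. By the paper's clinical table, 10 dogs with pyometra had earlier received exogenous progesterone-like compounds to suppress estrus and 7 had not. A tree of pyometra alone in the paper draws 1 more treated dog. Such treatment was also recorded for 2 dogs with mucometra, 4 with CEH and 1 in diestrus. The cervix was closed in 7 treated and 2 untreated dogs with pyometra, and it was open in 3 treated and 5 untreated ones. All treated dogs with pyometra and 5 of the 7 untreated ones were in the diestrus stage, as were 9 dogs with mucometra, 10 with CEH and all healthy dogs. The paper places all healthy dogs in early diestrus, whereas the diestrus stage dogs of each lesion also included later diestrus. The part of diestrus was not known for each dog, so restriction to diestrus stage dogs does not match it. The groups also differed in age: the paper gives the healthy dogs a much lower median age than each lesion group. Differences from diestrus therefore cannot be told apart from age.

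Values are log2 expression after robust multi-array averaging (RMA), and array medians lay between 6.20 and 6.34. A gene is called changed at a difference of at least 2-fold with an adjusted p under 0.05 over all genes (limma). Epithelial and hormone receptor genes of endometrium were present: EPCAM ran between 7.11 and 9.23 in pyometra and between 9.14 and 10.28 in diestrus, and ESR1, the estrogen receptor alpha, between 8.46 and 11.45 in pyometra and between 10.67 and 11.68 in diestrus. No pair of arrays held identical values. The most alike pair joined dog 100, with untreated pyometra, to dog 216, with treated mucometra (Pearson r 0.9928 over all genes, against 0.9889 for the next pair), so values without both dogs are given where a call rests on them. Endometrium is a mixture of cells, in which fewer cells of a type and less RNA per cell cannot be told apart.

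In pyometra the pathway moved at its entry and at the branch, and little at its end. IDO1, KMO, KYNU and AADAT were higher than in diestrus, and no member was lower by 2-fold. These 4 of 10 members stand beside 9.98% of all genes changed in that comparison (6.72% higher), and the median log2 fold change was 0.43 over the 10 members and -0.05 over all genes. Mucometra showed 2 changed members, IDO1 and AADAT (6.35% of all genes changed, 3.56% higher), and CEH showed none (1.82%). The 3 comparisons share the 21 dogs in diestrus. Against all 52 dogs without pyometra the same 4 members were changed (5.84% of all genes), and against mucometra 3 were, IDO1, KMO and KYNU (3.65%). By the adjusted p alone, with no fold threshold, 9 members passed in pyometra against the other dogs (49.5% of all genes), 6 against diestrus (51.3%) and 6 against mucometra (35.5%). On the same terms 7 passed in treated pyometra (51.7%), 6 in mucometra (47.1%) and 2 in CEH (26.3%), each against diestrus. Passing the p alone was therefore common over all genes.

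**Figure D1:**
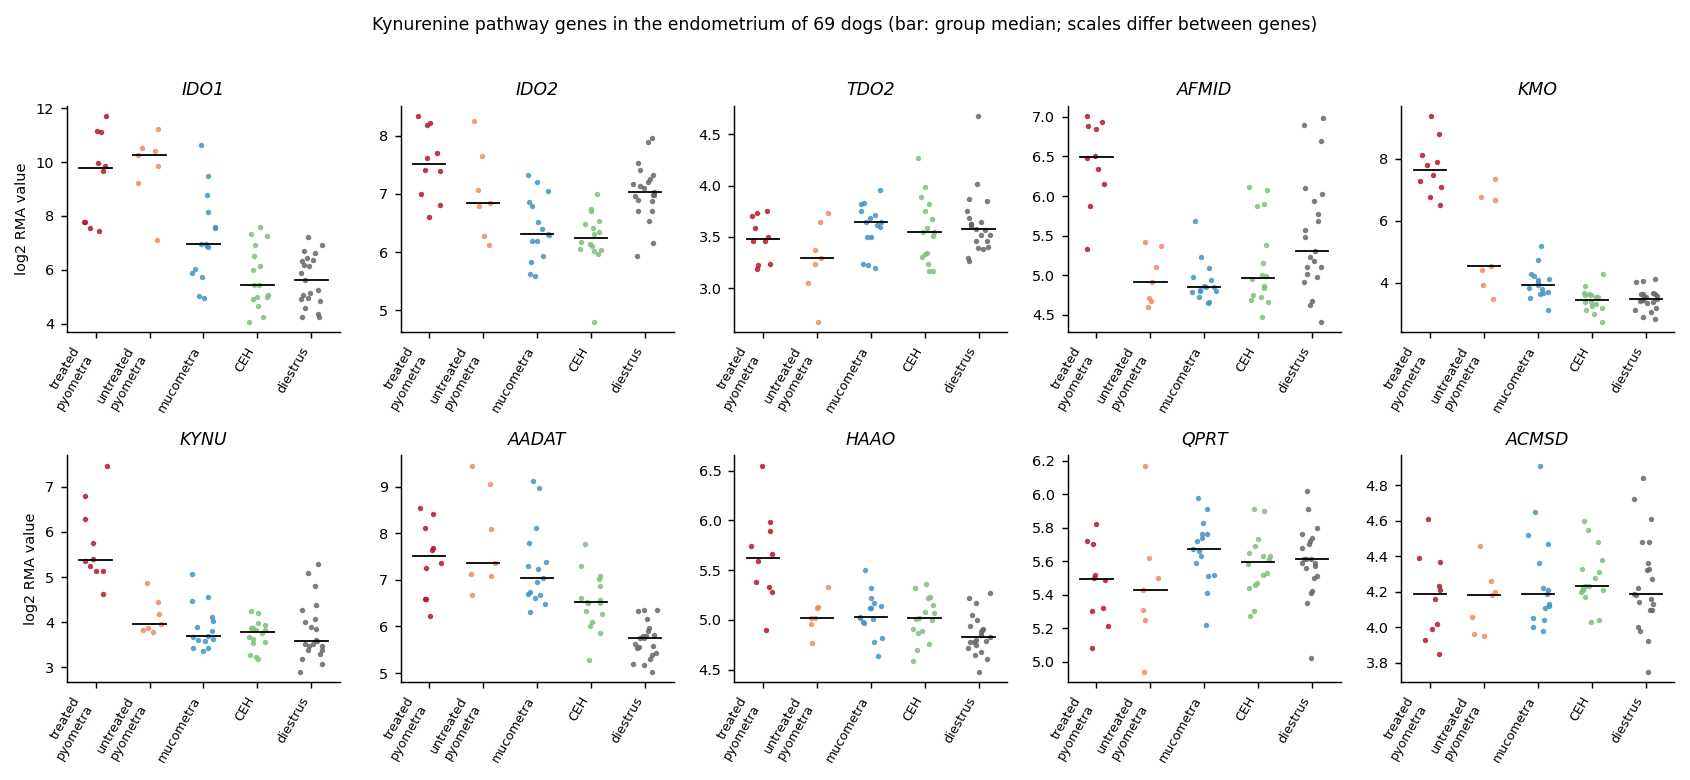
Log2 RMA value (vertical axis) of each of the 10 pathway genes in every dog (1 point per dog) with treated pyometra (10), untreated pyometra (7), mucometra (15), CEH (16) and diestrus (21), with a bar at each group median and a scale of its own for each gene. IDO1 lies above every dog in diestrus in 16 of the 17 dogs with pyometra, while 10 of the 52 dogs without pyometra lie above the lowest dog with it. KMO is high in all 10 treated dogs with pyometra and in 3 of the 7 untreated ones, and QPRT and ACMSD lie at like levels in all groups.

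IDO1, the inducible entry enzyme, ran from 7.43 to 11.71 in treated pyometra with a median of 9.77, and from 7.11 to 11.24 in untreated pyometra with a median of 10.26. It ran from 4.96 to 10.63 in mucometra (median 6.94), from 4.06 to 7.59 in CEH (median 5.43) and from 4.25 to 7.21 in diestrus (median 5.63). Of the 17 dogs with pyometra 16 lay above every dog in diestrus, the exception being dog 207 at 7.11. The log2 fold change of IDO1 was 3.95 ± 0.38 (SE) in pyometra against diestrus (15.5-fold, adjusted p = 4.28e-11) and 3.85 ± 0.45 against CEH (adjusted p = 1.66e-07). IDO1 was also higher in pyometra than in mucometra, by 2.40 ± 0.52 (adjusted p = 0.000838), although the groups overlapped: only 4 of the 17 dogs with pyometra lay above the highest dog with mucometra.

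Mucometra itself held a wide range of IDO1. Of its 15 dogs 6 lay above every dog in diestrus and 9 lay among them, and the log2 fold change was 1.55 ± 0.41 (adjusted p = 0.0018). The 4 highest dogs, at 8.16, 8.76, 9.49 and 10.63, were all in anestrus, while the other 2 dogs in anestrus lay at 5.02 and 6.94. The dogs at 8.16 and 10.63 were also the only 2 treated dogs with mucometra. The 9 dogs in the diestrus stage ran from 4.96 to 7.60. With only the dogs in the diestrus stage, the log2 fold change against diestrus fell to 0.88 (adjusted p = 0.0461), which is under 2-fold. These dogs with mucometra were in early, mid or late diestrus by the paper, and the healthy dogs in early diestrus alone. Among the dogs with CEH or mucometra, 12 in anestrus were set against 19 in the diestrus stage, and IDO1 differed by 1.22 ± 0.44 with diagnosis as a second factor (p = 0.00965), which did not pass after adjustment (adjusted p = 0.121). Of all genes, 0.282% changed between these stages, and no pathway member was among them. In CEH, IDO1 differed from diestrus by 0.10 ± 0.33 (95% confidence interval -0.56 to 0.77, adjusted p = 0.855).

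IDO2, a weaker relative of IDO1, followed another order. Its medians were 7.52 in treated pyometra, 6.85 in untreated pyometra, 6.31 in mucometra, 6.25 in CEH and 7.04 in diestrus, so that diestrus stood among the higher groups. Against diestrus, IDO2 had a log2 fold change of -0.63 ± 0.17 in mucometra (adjusted p = 0.00205) and of -0.80 ± 0.16 in CEH (adjusted p = 0.000488), both under 2-fold. In pyometra it did not pass against diestrus (0.27 ± 0.19, 95% confidence interval -0.10 to 0.65, adjusted p = 0.225) and was 1.07 ± 0.20 higher than in CEH (adjusted p = 0.000105). That last call brought the members changed between pyometra and CEH to 5 (5.95% of all genes changed). It was lost among the dogs in the diestrus stage, where the difference was 0.92 (adjusted p = 0.00279), and among untreated dogs (0.62, adjusted p = 0.0892).

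TDO2, the third entry enzyme, lay low in every group. Its values ran from 2.67 to 3.75 in pyometra, from 3.20 to 3.96 in mucometra, from 3.17 to 4.27 in CEH and from 3.26 to 4.68 in diestrus. The log2 fold change in pyometra against diestrus was -0.23 ± 0.10 (adjusted p = 0.049), far under 2-fold.

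AFMID, the formamidase that yields kynurenine, was not changed by diagnosis: its log2 fold change was 0.32 ± 0.25 in pyometra (adjusted p = 0.29), -0.60 ± 0.19 in mucometra (adjusted p = 0.00908, under 2-fold) and -0.36 ± 0.21 in CEH (adjusted p = 0.211), each against diestrus. The healthy dogs themselves ran from 4.41 to 6.99. The values in pyometra, from 4.60 to 7.01, covered most of that range and differed by treatment.

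KMO, which commits kynurenine to 3-hydroxykynurenine and is known in other mammals from macrophages, microglia and liver, ran from 6.52 to 9.38 in treated pyometra (median 7.64). In untreated pyometra it ran from 3.46 to 7.34 with a median of 4.54, in mucometra from 3.12 to 5.18 (median 3.93), in CEH from 2.73 to 4.29 (median 3.45) and in diestrus from 2.81 to 4.12 (median 3.46). Every treated dog with pyometra lay above every one of the 52 dogs without pyometra, as was so for 1.05% of all genes, whereas of the untreated dogs 3 of 7 did. The log2 fold change in pyometra was 3.25 ± 0.36 against diestrus (9.49-fold, adjusted p = 1.25e-09), 2.74 ± 0.43 against mucometra (adjusted p = 6.73e-05) and 3.28 ± 0.42 against CEH (adjusted p = 5.91e-07). Among untreated dogs only, the difference from mucometra was 1.36 and no longer passed (adjusted p = 0.0732). In mucometra KMO was 0.51 ± 0.14 higher than in diestrus (adjusted p = 0.0022), under 2-fold, and in CEH the difference was -0.04 ± 0.12 (adjusted p = 0.856).

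KYNU, which splits kynurenine to anthranilate and hydroxykynurenine to hydroxyanthranilate, moved with the treated dogs. It ran from 4.62 to 7.47 in treated pyometra (median 5.38), from 3.78 to 4.86 in untreated pyometra (median 3.96), from 3.36 to 5.07 in mucometra (median 3.70), from 3.18 to 4.24 in CEH (median 3.79) and from 2.90 to 5.28 in diestrus (median 3.59). The untreated dogs lay wholly within the range of diestrus. In pyometra as a whole KYNU was 1.25 ± 0.27 higher than in diestrus (adjusted p = 0.000162) and 1.18 ± 0.29 higher than in mucometra (adjusted p = 0.00212). Among untreated dogs only, the difference was 0.30 against diestrus (adjusted p = 0.364) and 0.39 against mucometra (adjusted p = 0.132), and the call against diestrus was also lost with case number as a covariate (0.85, adjusted p = 0.115). Nearly all dogs with pyometra had higher case numbers than every dog in diestrus, so that covariate can hardly be told apart from diagnosis.

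AADAT, the kynurenic acid arm, was, with IDO1, called higher in both pyometra and mucometra. Its values ran from 6.23 to 8.54 in treated pyometra (median 7.51), from 6.67 to 9.45 in untreated pyometra (median 7.36), from 6.32 to 9.12 in mucometra (median 7.03), from 5.28 to 7.76 in CEH (median 6.52) and from 5.03 to 6.36 in diestrus (median 5.75). Of the dogs with pyometra 16 of 17, of those with mucometra 14 of 15 and of those with CEH 10 of 16 lay above every dog in diestrus. The log2 fold change against diestrus was 1.90 ± 0.21 in pyometra (adjusted p = 1.08e-09), 1.59 ± 0.20 in mucometra (adjusted p = 7.19e-08) and 0.83 ± 0.16 in CEH (adjusted p = 0.00038, under 2-fold). Between pyometra and mucometra AADAT differed by 0.31 ± 0.30, with a 95% confidence interval of -0.30 to 0.92 (adjusted p = 0.445). The highest dogs of both groups were dog 100 at 9.45 and dog 216 at 9.12, the most alike pair of arrays. Without these 2 dogs the log2 fold change against diestrus was 1.78 in pyometra and 1.46 in mucometra, and both remained called. Against CEH, AADAT was 1.07 ± 0.26 higher in pyometra, and the call was lost without dog 100 (0.95) or without dog 217 (0.98).

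**Figure D2:**
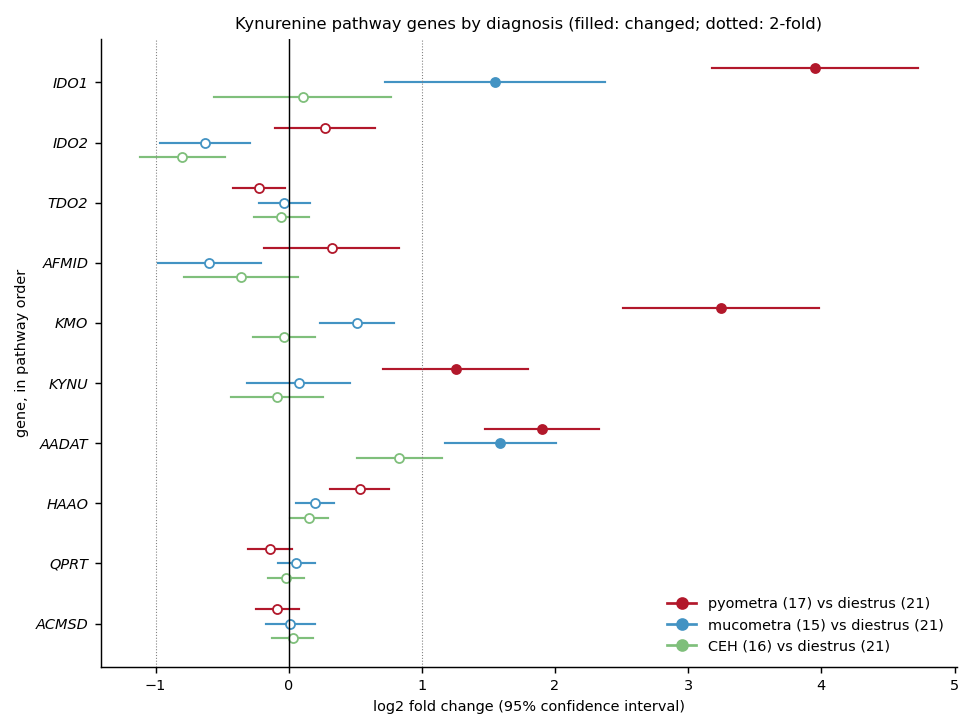
Log2 fold change with its 95% confidence interval (horizontal axis) of the 10 genes in pathway order (vertical axis) in pyometra, mucometra and CEH, each against the 21 dogs in diestrus; filled points are genes called changed and dotted lines mark 2-fold. IDO1 and AADAT are filled in pyometra and mucometra, KMO and KYNU in pyometra alone, and no gene is filled in CEH.

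Below the branch the changes were small. HAAO, which opens the ring of hydroxyanthranilate, was 0.53 ± 0.11 higher in pyometra than in diestrus (adjusted p = 9.32e-05) and 0.20 ± 0.07 higher in mucometra (adjusted p = 0.0206), both under 2-fold. QPRT, which leads to NAD, ran from 4.94 to 6.17 in pyometra and from 5.02 to 6.02 in diestrus, a difference of -0.14 ± 0.08 (95% confidence interval -0.31 to 0.03, adjusted p = 0.153). ACMSD, which diverts the same intermediate, ran from 3.85 to 4.61 in pyometra and from 3.75 to 4.84 in diestrus, a difference of -0.09 ± 0.08 (95% confidence interval -0.25 to 0.08, adjusted p = 0.387). The intervals of both leave no room for a 2-fold difference on this scale. The difference between QPRT and ACMSD within a dog was 1.30 ± 0.31 in pyometra and 1.35 ± 0.34 in diestrus (SD, permutation test, adjusted p = 0.748). This was 1 of 12 permutation tests of such within-dog differences, chosen with the values known and adjusted together. QPRT, ACMSD and TDO2, together with AFMID, KMO, KYNU and HAAO, had a mean value under 5.624, among the dimmest genes on the arrays, where arrays can understate a difference.

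The comparison of treated with untreated pyometra asked whether the pathway differed with earlier progesterone treatment. AFMID, KMO and KYNU were higher in the 10 treated dogs and no member was lower, 3 of 10 beside 3.99% of all genes (2.88% higher). The median log2 fold change was 0.36 over the members and 0.00 over all genes. All 3 calls held when any dog with pyometra was left out, and with cervix condition as a second factor. The paper's drawings differ on the treatment of a dog with pyometra. Moving a dog between the treated and untreated groups was not tested.

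KMO had values of 3.46, 3.92, 4.42, 4.54, 6.66, 6.78 and 7.34 in the 7 untreated dogs, so the group fell into 4 low and 3 high dogs, while the 10 treated dogs started at 6.52. The log2 fold change was 2.41 ± 0.54 (5.31-fold, adjusted p = 0.00584), and 6 of the 10 treated dogs lay above every untreated dog. KYNU differed by 1.59 ± 0.33 (3.01-fold, adjusted p = 0.00307), and 9 of the 10 treated dogs lay above every untreated dog. The tenth, dog 218 at 4.62, stood below dog 199, the highest untreated dog at 4.86. Dog 205 was the highest of the treated dogs in both KMO (9.38) and KYNU (7.47).

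AFMID differed by 1.46 ± 0.21 (2.76-fold, adjusted p = 0.000204). It ran from 5.33 to 7.01 in treated dogs with a median of 6.49, and from 4.60 to 5.42 in untreated dogs with a median of 4.92. Of the treated dogs 9 of 10 lay above every untreated dog, dog 231 being the exception at 5.33. Against diestrus AFMID was 0.92 ± 0.25 higher in treated pyometra (adjusted p = 0.00215) and had -0.54 ± 0.27 in untreated pyometra (adjusted p = 0.117), and neither difference reached 2-fold. HAAO, with a median of 5.63 in treated pyometra and 5.02 in untreated pyometra, was 0.58 ± 0.17 higher in treated than in untreated pyometra (adjusted p = 0.0295), under 2-fold. The adjusted p no longer passed without dog 100 (0.53, adjusted p = 0.071). Nor did it pass with cervix condition as a second factor (0.57, adjusted p = 0.0541) or with diestrus stage dogs only (0.63, adjusted p = 0.0507).

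IDO1 and AADAT gave another picture. IDO1 averaged 9.40 ± 1.65 in treated pyometra and 9.81 ± 1.34 in untreated pyometra (SD), a log2 fold change of -0.41 ± 0.68 with a 95% confidence interval of -1.84 to 1.03 (adjusted p = 0.745). AADAT averaged 7.44 ± 0.80 in treated pyometra and 7.84 ± 1.07 in untreated pyometra (SD), a log2 fold change of -0.39 ± 0.41 with an interval of -1.25 to 0.47 (adjusted p = 0.574). These intervals are wide and do not show that the levels were alike. The difference between KMO and IDO1 within a dog was 2.82 larger in treated than in untreated pyometra (-1.69 ± 1.74 and -4.50 ± 1.31, SD; exact permutation test, two-sided p = 0.00422, adjusted p = 0.0108), and that between KMO and AADAT was 2.80 larger (0.27 ± 1.17 and -2.53 ± 2.04; exact permutation test, p = 0.00452, adjusted p = 0.0108). Both pairs were chosen with these values known. Both differences follow from the group means of the single genes, so these tests add no independent evidence. IDO2 (0.52 ± 0.30, adjusted p = 0.266), TDO2 (0.20 ± 0.14, adjusted p = 0.361), QPRT (0.01 ± 0.15, adjusted p = 0.984) and ACMSD (0.02 ± 0.11, adjusted p = 0.921) did not pass between treated and untreated pyometra.

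**Figure D3:**
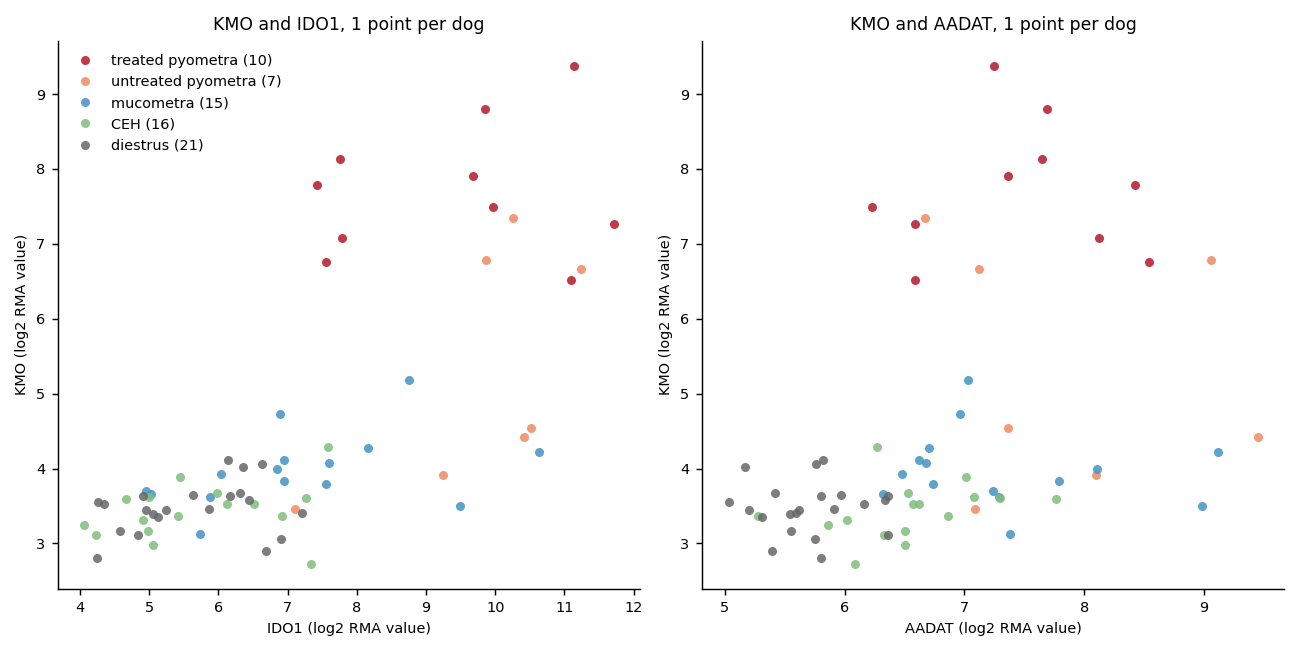
KMO (vertical axis) against IDO1 (left, horizontal axis) and against AADAT (right), all as log2 RMA values, 1 point per dog and 1 colour per group. Dogs with untreated pyometra reach AADAT values of treated ones, and all but dog 207, with IDO1 at 7.11, reach their IDO1 values. Dog 207 is among the 4 of the 7 untreated dogs that keep KMO at 3.46 to 4.54. Of the treated dogs, 4 with KMO between 6.76 and 8.13 have IDO1 at 7.43 to 7.79.

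Set against diestrus separately, treated pyometra had 4 changed members (11.7% of all genes changed) and untreated pyometra 3 (9.06%). KMO was 4.24 ± 0.21 higher in treated pyometra (adjusted p = 8.91e-17) and 1.83 ± 0.34 higher in untreated pyometra (adjusted p = 8.57e-05). The fit pools the spread of both groups, but the SD of KMO was 1.57 in untreated pyometra and 0.35 in diestrus. For untreated pyometra, where KMO ran from 3.46 to 7.34, the SE and p of KMO therefore overstate the precision. IDO1 was 3.78 ± 0.44 higher in treated pyometra (adjusted p = 1.17e-08) and 4.19 ± 0.43 higher in untreated pyometra (adjusted p = 1.44e-08). In treated pyometra IDO1 and KMO did not overlap with diestrus, as was so for 3.88% of all genes towards higher values. AADAT was 1.74 ± 0.20 higher in treated pyometra (adjusted p = 1.22e-08) and 2.13 ± 0.26 higher in untreated pyometra (adjusted p = 1.96e-07), where it did not overlap with diestrus (1.91% of all genes). KYNU was called in treated pyometra (1.91 ± 0.27, adjusted p = 3.66e-07) and not in untreated pyometra (0.32 ± 0.25, adjusted p = 0.321). Both comparisons share the dogs in diestrus, and the test of the difference between treated and untreated dogs is the one given above.

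**Figure D4:**
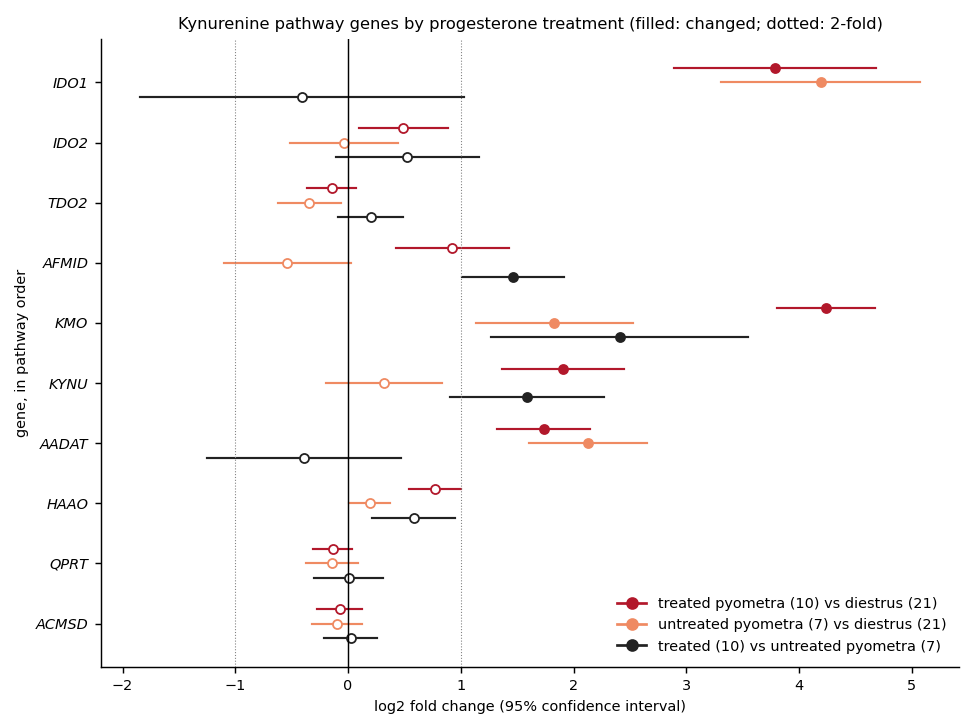
Log2 fold change with its 95% confidence interval (horizontal axis) of the 10 genes in pathway order (vertical axis) in treated pyometra against diestrus, untreated pyometra against diestrus, and treated against untreated pyometra; filled points are genes called changed and dotted lines mark 2-fold. The interval of IDO1 between treated and untreated dogs spans 0, and those of AFMID, KMO and KYNU lie above it.

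Treatment was also recorded for 6 dogs with CEH or mucometra, which were compared with 25 untreated dogs of these diagnoses with diagnosis as a second factor. No gene of the 15947 was called by limma (1267, or 7.95%, had an unadjusted p under 0.05), and KYNU had the smallest p of the members (0.45 ± 0.17, p = 0.0117, adjusted p = 0.521). The treatment difference in pyometra minus that in CEH and mucometra was 2.29 ± 0.52 for KMO (adjusted p = 0.00347), 1.28 ± 0.29 for AFMID (adjusted p = 0.00356) and 1.14 ± 0.34 for KYNU (adjusted p = 0.0231), 3 members beside 3.96% of all genes. For IDO1 it was -0.96 ± 0.94 (adjusted p = 0.573). The fit pools the spread of all these dogs. The SD of KMO was 0.89 in treated and 1.57 in untreated pyometra, but 0.45 and 0.53 in treated and untreated CEH and mucometra. The SE and p of KMO therefore overstate the precision. The treated dogs with CEH or mucometra included dogs in anestrus, whereas all treated dogs with pyometra were in the diestrus stage.

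By cervix condition no gene was called between 9 closed and 8 open pyometras (limma; 574 genes, 3.6%, had an unadjusted p under 0.05). IDO1 ran from 7.11 to 11.71 in closed pyometra (median 7.79) and from 9.24 to 11.24 in open pyometra (median 10.39). The 5 lowest dogs of the 17 were all closed, and the log2 fold change was -1.58 ± 0.58 (p = 0.0139, adjusted p = 0.999). With treatment as a second factor it was -1.70 ± 0.64 (p = 0.0169, adjusted p = 0.849), while KYNU had -0.88 ± 0.30 (p = 0.0082), IDO2 -0.74 ± 0.28 (p = 0.0189) and KMO -1.22 ± 0.53 (p = 0.0336), each with an adjusted p of 0.849. TDO2 had the opposite sign, with 0.31 ± 0.12 (p = 0.022, adjusted p = 0.999) without that factor and 0.28 ± 0.14 (p = 0.0587) with it. The 3.6% above belongs to the fit without treatment. For the fit with treatment the share of all genes with an unadjusted p under 0.05 was not taken, so its unadjusted p-values have no such background.

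Markers of myeloid cells also differed between these groups. Of 11 measured neutrophil markers 8 were higher in treated than in untreated pyometra and none was lower, and of 13 macrophage and monocyte markers 8 were higher and none was lower, beside 2.88% of all genes higher. Their median log2 fold changes were 2.03 and 1.41, against 0.00 over all genes. In untreated pyometra against diestrus, where KMO was changed and KYNU was not, 13 of 13 macrophage and monocyte markers and 3 of 11 neutrophil markers were higher (9.06% of all genes changed, 6.06% higher). In the same comparison 6 of 9 B and plasma cell markers, 5 of 12 stromal fibroblast markers and 1 of 10 dendritic cell markers were higher. The mean of the neutrophil list, relative to the mean of all dogs, ran from 1.55 to 3.21 in treated pyometra, from -0.48 to 1.97 in untreated pyometra, from -0.70 to 0.22 in mucometra and from -0.96 to -0.23 in diestrus. The mean of the macrophage and monocyte list ran from 1.27 to 2.69 in treated pyometra, from -0.10 to 1.75 in untreated pyometra, from -0.63 to 1.00 in mucometra and from -1.36 to 0.20 in diestrus. In treated against untreated pyometra S100A8, a calcium-binding protein of neutrophils, differed by 3.02 ± 0.54 (adjusted p = 0.00108) and ADGRE1, a macrophage receptor, by 2.86 ± 0.46 (adjusted p = 0.000508). MPO, the defining granule enzyme of neutrophils, ran between 4.93 and 6.19 in treated pyometra and between 4.55 and 5.51 in untreated pyometra (0.19 ± 0.16, adjusted p = 0.46). The part of these cells in the levels of KMO, KYNU and AFMID was not tested.

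Within untreated pyometra the 3 dogs with KMO from 6.66 to 7.34 were dogs 225, 217 and 199, whose neutrophil list means were 1.33, 0.68 and 1.97. The other 4 dogs, with KMO from 3.46 to 4.54, had neutrophil means from -0.48 to -0.26 and macrophage means from -0.10 to 0.50, against macrophage means of 0.72, 1.75 and 1.72 in dogs 225, 217 and 199. IDO1 did not divide these dogs in the same way: among the 4 dogs low in KMO it was 7.11, 9.24, 10.41 and 10.52, and among dogs 217, 199 and 225 it was 9.86, 10.26 and 11.24. Dendritic cell markers were higher for 1 of 10 in treated against untreated pyometra, B and plasma cell markers for 7 of 9, T and NK cell markers for 4 of 13 and epithelial markers for 0 of 11, beside the same 2.88% of all genes.

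**Figure D5:**
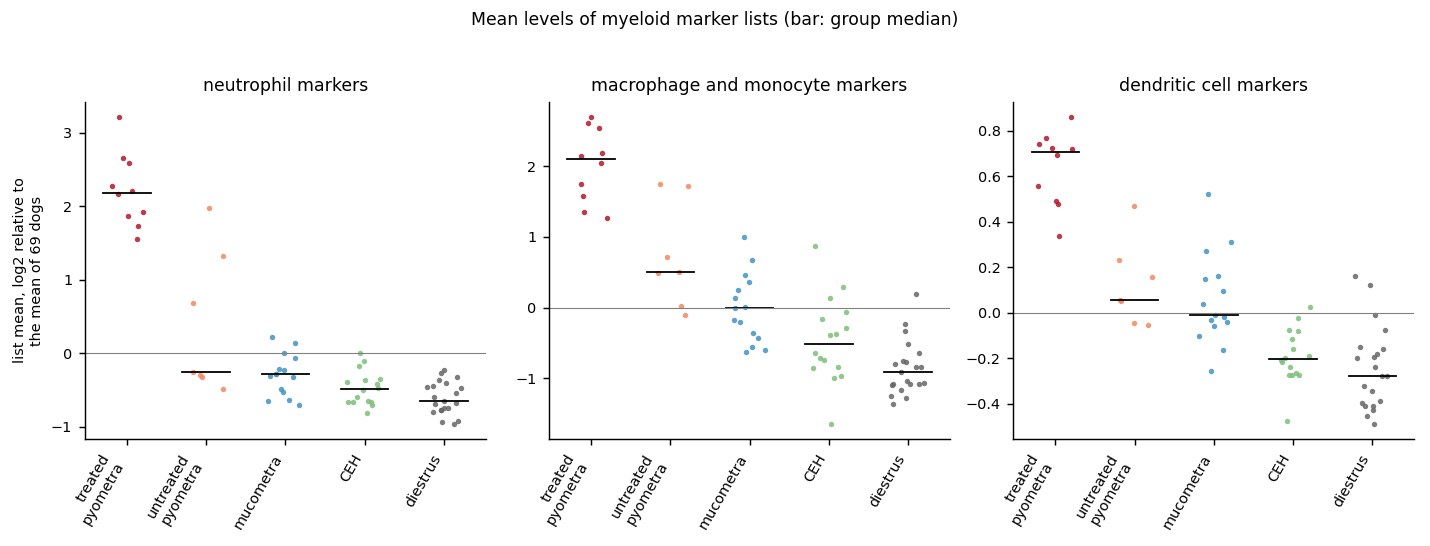
Mean of the measured neutrophil, macrophage and monocyte, and dendritic cell markers in each dog, as log2 values relative to the mean of all 69 dogs (vertical axis), by group, with a bar at each group median. All 10 treated dogs with pyometra lie between 1.55 and 3.21 for neutrophil markers, and the untreated dogs spread between -0.48 and 1.97.

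Genes around the pathway were followed through 6 lists, whose counts stand beside 9.98% of all genes changed in pyometra and 6.35% in mucometra against diestrus, and 3.99% between treated and untreated pyometra. Of 9 carriers that can bring tryptophan or related amino acids into cells, 4 were higher and 1 was lower in pyometra than in diestrus (median log2 fold change 0.07). SLC6A14, a broad amino acid carrier, was 7.99-fold higher (adjusted p = 2.04e-08), and SLC1A5, a glutamine carrier, was higher by 2.02 ± 0.18 on the log2 scale (adjusted p = 7.96e-12), while SLC7A5, the large neutral amino acid transporter, had -1.57 ± 0.33 (adjusted p = 0.000134). In mucometra SLC7A5 had -2.28 ± 0.34 against diestrus (adjusted p = 1.03e-06), and SLC36A4, a tryptophan and proline carrier, was higher (1.18 ± 0.15, adjusted p = 6.06e-08). No carrier changed between treated and untreated pyometra.

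Of 10 genes for other uses of tryptophan only MAOB, an amine oxidase, changed in pyometra against diestrus (2.37 ± 0.24, adjusted p = 1.04e-10), and TPH1, which starts serotonin synthesis, did not (0.02 ± 0.13, adjusted p = 0.896). That count of 1 in 10 is near the share over all genes. Of 6 measured genes of the side branches 2 changed, KYAT3, another kynurenine aminotransferase (1.31 ± 0.17, adjusted p = 3.52e-08), and SLC7A11, the cystine and glutamate exchanger (1.82 ± 0.45, adjusted p = 0.000863). KYAT3 was also higher in mucometra (1.00 ± 0.18, adjusted p = 1.76e-05), as AADAT was. SLC7A11 differed between treated and untreated pyometra (2.38 ± 0.39, adjusted p = 0.000599), as KMO did.

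On the NAD side, where QPRT showed no 2-fold change, 3 of 13 measured genes were higher in pyometra than in diestrus. CD38, an enzyme that consumes NAD, was higher by 2.03 ± 0.18 (adjusted p = 3.37e-12), NNMT, which methylates nicotinamide, by 2.02 ± 0.32 (adjusted p = 1.73e-06) and BST1, a relative of CD38, by 1.26 ± 0.18 (adjusted p = 1.27e-07). Between treated and untreated pyometra NAMPT, the salvage enzyme that recycles nicotinamide, was higher by 1.16 ± 0.22 (adjusted p = 0.00152) and CD38 by 1.18 ± 0.24 (adjusted p = 0.00272). BST1 had -1.15 ± 0.21 in the same comparison (adjusted p = 0.00117), with values from 6.82 to 8.16 in treated pyometra and from 8.25 to 9.57 in untreated pyometra that did not overlap (0.546% of all genes towards lower values).

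Of 10 measured genes of the aryl hydrocarbon receptor, which kynurenine and kynurenic acid can bind, 2 were higher in pyometra than in diestrus (median 0.28). The receptor AHR was higher by 1.21 ± 0.10 (adjusted p = 1.29e-12) and its target TIPARP by 1.78 ± 0.17 (adjusted p = 4.37e-11), while CYP1A1, the classical target, had 0.99 ± 0.33 (adjusted p = 0.012), just under 2-fold, and CYP1B1 0.31 ± 0.12 (adjusted p = 0.031). TIPARP was higher in mucometra as well (1.76 ± 0.23, adjusted p = 1.12e-07). None of the 10 changed between treated and untreated pyometra.

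The list of interferon gamma signalling and other inducers of IDO1 had 11 of 19 measured genes higher in pyometra than in diestrus and 5 of 19 in mucometra (medians 1.29 and 0.48). IFNG itself differed by 0.19 ± 0.11 in pyometra (adjusted p = 0.137). CXCL10, a chemokine induced by interferon, was higher by 2.78 ± 0.42 in pyometra (adjusted p = 5.51e-07) and by 1.92 ± 0.38 in mucometra (adjusted p = 6.95e-05), and IRF1, a transcription factor of the response, by 1.63 ± 0.19 in mucometra (adjusted p = 9.47e-09). PTGS2, cyclooxygenase 2, had 5.20 ± 0.37 in pyometra (adjusted p = 1.87e-14). Between treated and untreated pyometra 3 of 19 were higher: IL1B by 3.43 ± 0.41 (adjusted p = 4.82e-05), IL6 by 2.25 ± 0.56 (adjusted p = 0.0115) and TNF by 1.73 ± 0.19 (adjusted p = 3.67e-05), all inflammatory cytokines.

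The genes whose values tracked a changed member most closely were sought in the deviations of the 69 dogs from the means of their 5 groups, as a description across dogs that share arrays and tissue composition. IDO1 was most like ADGRF1 (r 0.74), CASP12 (0.72) and ANXA8L1 (0.69). KMO was most like S100A8 (0.74), PGD (0.74) and CAPN14 (0.73), and KYNU like DNAJB14 (0.60), DCSTAMP (0.59) and SNX10 (0.59). AADAT was most like ITGA1 (0.76), CPNE8 (0.73) and PELO (0.72), and in humans PELO lies inside ITGA1. Among the members themselves the closest pairs were IDO1 with IDO2 (0.52), TDO2 with ACMSD (0.42) and KMO with KYNU (0.42), while IDO1 had 0.32 with KMO and 0.07 with AADAT.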

How the data were processed

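Log2 values per probe set, which the authors made by RMA with quantile normalization over all 69 arrays, were used as deposited. No version of the RMA software was found. Of 32391 probe sets, 16545 carry 1 symbol in the platform annotation, 370 several and 15476 none. For each gene the probe set of highest mean was used, which gave 15947 genes.

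Diagnosis came from the sample titles, which call 15 dogs mucometra where a second label reads hemometra. Treatment, cervix and stage were read for each case number from the annotation of the study's tree of all dogs. Its tree of pyometra alone draws 1 more treated dog, so every pyometra dog was left out in turn. The shares of closed pyometra by treatment also differ between the paper's abstract and its discussion. Leaving a dog out does not show what moving it to the treated group would do, which was not tested.

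Comparisons were fitted with limma 3.58.1 in R 4.3.3 (Benjamini-Hochberg over all genes). Treated against untreated pyometra was also run on simulated data with the same spread in all groups. That setting does not cover genes such as KMO, whose spread differed between the groups. Within-dog differences used permutation tests (scipy 1.17.1, Python 3.11.15), and figures matplotlib 3.10.9. Members, context lists and marker lists were chosen with earlier results of these data known. The genes named are all members, up to 4 changed genes of each context list with the largest change, and the 3 genes most like each changed member. IFNG, TPH1, CYP1A1, CYP1B1, MPO and the checks of tissue were added after their values were seen. The number of arrays limits the precision, and p-values measure the spread between dogs.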

Additional observations from a re-analysis of the deposited data

Results flagged for a closer look

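The difference between treated and untreated dogs was itself different between pyometra and the other lesions for 3 members: by 2.29 on the log2 scale for KMO, 1.28 for AFMID and 1.14 for KYNU (limma interaction term, adjusted p = 0.00347, 0.00356 and 0.0231). Only 6 treated dogs had CEH or mucometra, against 10 with pyometra, and without dogs 100 and 216 the 3 values were 2.17, 1.18 and 1.22 (adjusted p = 0.0166, 0.0202 and 0.0434). For KMO the pooled spread makes these p-values overstate the precision, and cycle stage differed between the treated dogs of the 2 sides. No dog stood apart from its group in any of the 40 combinations of member and group of 4 to 10 dogs that were examined by Dixon's criterion, of which chance would mark about 1 in 20.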

How the results depend on the processing

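No member called changed turned direction under the alternatives run, but several values that were not called did, and those given here are examples. AFMID in pyometra against the other dogs had 0.60, which passed by the adjusted p alone, but -0.25 among untreated dogs. Among untreated dogs AFMID in pyometra against diestrus had -0.53, and IDO2 had -0.04. AFMID in closed against open pyometra had -0.35 with treatment as a second factor. IDO1 in CEH against diestrus had -0.19 with diestrus stage dogs only. IDO1 in treated against untreated pyometra had 0.30 with cervix as a second factor. With adjusted p under 0.05 and no fold threshold, the members changed numbered 9 in pyometra against the other dogs, 6 in mucometra and 2 in CEH against diestrus, 6 in pyometra against mucometra and 7 in treated pyometra against diestrus. With genes of a mean under 5.624 left out, which removes 7 members including KMO, KYNU and AFMID from the test, 2 remained in pyometra against the other dogs, 2 against diestrus, 1 against mucometra, 3 against CEH, 2 in treated pyometra against diestrus, and 0 between treated and untreated pyometra and for the difference in treatment effect. Among untreated dogs, pyometra against mucometra kept 1 member (KMO had 1.36, adjusted p = 0.0732) and pyometra against CEH 3. With diestrus stage dogs only, mucometra against diestrus kept 1.

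Leaving out each dog with the lesion in turn gave 4 to 4 changed members for pyometra against the other dogs and against diestrus, 2 to 2 for mucometra, 0 to 0 for CEH, 3 to 3 for pyometra against mucometra, 4 to 5 against CEH, 3 to 3 for treated against untreated pyometra, 4 to 5 for treated and 3 to 3 for untreated pyometra against diestrus, and 0 to 0 for closed against open. Members already called kept the call in 260 values under other settings and lost it in 11, and with 1 dog left out they kept it in 412 and lost it in 2. The 260 include the setting with no fold threshold, under which a called member cannot lose its call. Members removed with the dim genes are in neither count, and members that were not called were not counted. AADAT in pyometra against the other dogs fell under 2-fold with case number as a covariate (0.86, adjusted p = 0.00898). No paired analysis was possible because each case number belongs to 1 dog, and no member had another probe set to try.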
